A study of Mus musculus with 8 samples.

Results

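Antioxidant enzymes and the transcription factor Nrf2 were examined in Zeb1-/- LSK cells sorted by EpCAM, the epithelial cell adhesion molecule. The set held 10 genes taken by name from the 54532 genes of the deposited count table: the superoxide dismutases Sod1 and Sod2, catalase (Cat), the glutathione peroxidases Gpx1 and Gpx4, the peroxiredoxins Prdx1 and Prdx3, thioredoxin (Txn1), the quinone reductase Nqo1, and Nfe2l2, which encodes Nrf2. The 8 RNA-Seq libraries came from bone marrow LSK cells (Lin- C-KIT+ SCA-1+, the compartment that holds hematopoietic stem and multipotent progenitor cells) of C57BL/6 mice aged 8 to 12 weeks. All mice carried floxed Zeb1 alleles and Mx1-Cre, an interferon-inducible Cre that also acts outside blood cells, and had received pIpC to delete Zeb1, with collection on day 14 after the final injection. There were 4 libraries of the EpCAM+ fraction and 4 of the EpCAM- fraction. No Zeb1-intact library was analysed here, so each difference is one between 2 fractions of Zeb1-/- cells.

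Superoxide formed by mitochondria and oxidases is converted to hydrogen peroxide by superoxide dismutases, Sod1 mainly in the cytosol and Sod2 in the mitochondrial matrix. Peroxide is then removed by catalase in peroxisomes, by glutathione peroxidases, and by peroxiredoxins that are recharged by thioredoxin. Nrf2 is held at low levels by the adaptor Keap1 and, when released, binds antioxidant response elements with small Maf proteins and raises transcription of many of these genes, whereas Bach1 competes for the same elements. Blood stem cells are sensitive to reactive oxygen species, and the enzymes are therefore followed as part of stem cell maintenance.

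The cytosolic and mitochondrial partners Sod1 and Sod2, and Prdx1 and Prdx3, are shown as the stretch that starts 160 bases before the RefSeq transcript start and ends before the annotated exon at that start. For Sod2 a longer annotated transcript begins further upstream, so its stretch lies within the annotated gene, in an intron of that transcript. For Nfe2l2, the 60 bases that begin 250 bases before the start are shown. Sequences are from RefSeq (GRCm38.p6), written 5′ to 3′ on the gene's strand, and capitals mark the core of the antioxidant response element, TGACNNNGC, or its reverse complement.
Sod1 (chr16:90220602-90220753, plus strand): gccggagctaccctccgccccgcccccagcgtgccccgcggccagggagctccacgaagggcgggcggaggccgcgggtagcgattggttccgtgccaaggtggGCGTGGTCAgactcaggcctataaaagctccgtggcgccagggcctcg
Sod2 (chr17:13007679-13007816, plus strand): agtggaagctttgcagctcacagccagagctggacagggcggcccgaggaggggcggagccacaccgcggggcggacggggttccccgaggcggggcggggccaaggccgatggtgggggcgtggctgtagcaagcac
Prdx1 (chr4:116685439-116685543, plus strand): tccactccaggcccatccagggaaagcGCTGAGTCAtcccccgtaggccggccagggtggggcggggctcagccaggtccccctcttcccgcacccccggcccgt
Prdx3 (chr19:60874557-60874698, minus strand): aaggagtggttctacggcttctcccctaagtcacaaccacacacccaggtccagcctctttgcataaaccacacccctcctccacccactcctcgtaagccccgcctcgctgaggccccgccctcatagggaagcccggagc
Nfe2l2 (chr2:75704854-75704913, minus strand): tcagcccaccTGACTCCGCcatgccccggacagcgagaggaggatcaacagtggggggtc

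All 10 genes had a promoter entry of 300 bases, from 250 before to 50 after the start, and Gpx4 had 4 entries. Both strands were searched for TGACNNNGC. A match lay in the promoters of 3 genes: at 240 bases before the start in Nfe2l2 (TGACTCCGC), at 133 in Prdx1 (GCTGAGTCA on the gene's strand), and at 56 in Sod1 (GCGTGGTCA on the gene's strand). Of all 27025 genes with an entry, 14.0% held a match, so these letters are common, and a match is a description of sequence rather than a binding site. In Sod2 and Prdx3 the letters were not present in this window.

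The glutathione peroxidases Gpx1 and Gpx4 are selenoproteins, in which an in-frame TGA codon is read as selenocysteine, the catalytic residue. The annotated codon lies at chr9:108339451-108339453 in Gpx1 and at chr10:80054737-80054739 in Gpx4 (GRCm38, plus strand), and it is shown in capitals with the bases around it in the GENCODE transcripts.
Gpx1: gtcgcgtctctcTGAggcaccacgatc
Gpx4: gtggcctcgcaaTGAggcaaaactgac

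The libraries held 14114491 to 17073546 counts each. Epcam was at 160 to 234 CPM (read counts normalised to the TMM-scaled library size) in EpCAM+ libraries and at 1.25 to 8.99 CPM in EpCAM- libraries. Zeb1 transcripts were counted in both fractions, at 14.8 to 23.7 and 9.49 to 14.0 CPM, with a log2 fold change of 0.72 (edgeR adjusted p = 0.00798). A count over the whole gene does not show whether the floxed exon was lost. Of 13560 genes tested, 2961 were higher and 2818 lower in EpCAM+ cells (edgeR quasi-likelihood test, Benjamini-Hochberg adjusted p under 0.05). The typical tested gene differed little, with a log2 fold change of 0.02 at the median.

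In Zeb1-/- EpCAM+ cells, 3 of the 10 genes were lower and none was higher. Prdx3 and Sod2, which encode the mitochondrial peroxiredoxin and superoxide dismutase, and Nfe2l2 were the 3 genes called. Their cytosolic counterparts Prdx1 and Sod1, as well as Txn1, Cat and Gpx1, did not pass the test, and Gpx4 and Nqo1 lay just outside it. Across all tested genes 20.8% were called lower and 21.8% higher, or 42.6% in either direction, so 3 of 10 was not far from the share over all genes. The median log2 fold change of the 10 genes was -0.24, and 8 of the 10 estimates were below 0. At an unadjusted p under 0.05, edgeR gave 5 lower and 0 higher, beside 25.1% lower and 26.2% higher over all genes. DESeq2 called 5 lower and 0 higher after adjustment, beside 22.6% and 22.2%. The plot of CPM by library shows the levels from which these values derive.

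**Figure D1:**
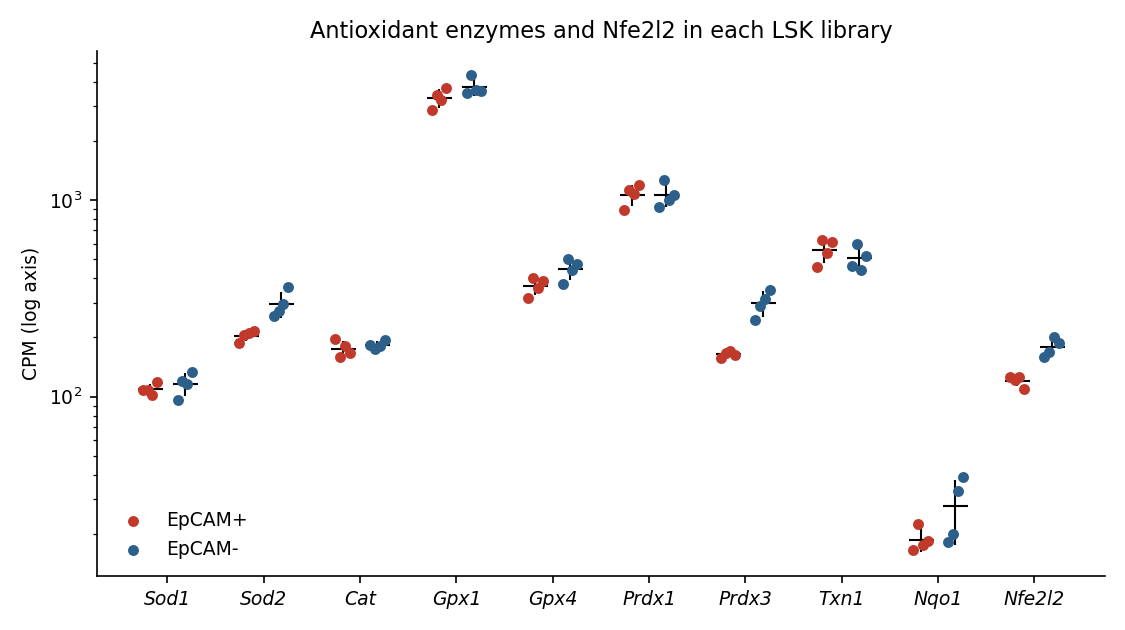
Expression of the 10 genes in each library, in CPM on a log axis. Red points are the 4 EpCAM+ libraries and blue points the 4 EpCAM- libraries, with the mean (horizontal tick) and SD (vertical line); the 2 fractions are apart for Prdx3, Sod2 and Nfe2l2 and overlap for the other 7 genes.

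Prdx3, the mitochondrial peroxiredoxin that reduces hydrogen peroxide in the matrix, had the largest difference of the set (ENSMUSG00000024997, chr19:60864051-60874556, minus strand, GRCm38). Its level was 157, 166, 170 and 163 CPM in EpCAM+ replicates 1 to 4. In the EpCAM- replicates it was 245, 288, 315 and 349 CPM. All EpCAM+ libraries were below all EpCAM- libraries, and the EpCAM+ values lay close together. The means were 164 ± 5.74 and 299 ± 43.7 CPM (SD, n = 4 each), a log2 fold change of -0.87 (SE 0.10), which is 1.83-fold lower in EpCAM+ cells (edgeR adjusted p = 0.000259). All EpCAM+ libraries were likewise below all EpCAM- libraries for Sod2 and Nfe2l2, so 3 of the 10 genes separated the fractions. Over all tested genes the fractions separated for 40.1%, made up of 20.0% lower and 20.1% higher in EpCAM+ cells.

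Prdx1, the abundant cytosolic peroxiredoxin, showed no such difference (ENSMUSG00000028691, chr4:116685544-116700822, plus strand). It was at 886, 1118, 1067 and 1193 CPM in EpCAM+ replicates 1 to 4 and at 926, 1263, 999 and 1059 CPM in the EpCAM- replicates. The fractions overlapped. The log2 fold change was 0.01 with a 95% interval of -0.26 to 0.27 (adjusted p = 0.975, edgeR), and its sign turned with DESeq2's size factors. Differences up to about that bound in either direction were therefore not resolved.

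Sod2, the manganese superoxide dismutase of the matrix, was lower in EpCAM+ cells (ENSMUSG00000006818, chr17:13006846-13040063, plus strand). Its level was 188, 205, 210 and 215 CPM in EpCAM+ replicates 1 to 4 and 258, 273, 297 and 360 CPM in EpCAM- replicates 1 to 4. The highest EpCAM+ library remained below the lowest EpCAM- library. The means of 205 ± 11.8 and 297 ± 45.1 CPM (SD, n = 4 each) gave a log2 fold change of -0.54 (SE 0.10), or 1.45-fold lower (edgeR adjusted p = 0.00270).

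Sod1, the copper-zinc enzyme of the cytosol, had overlapping levels (ENSMUSG00000022982, chr16:90220754-90226329, plus strand). It was at 107, 109, 102 and 119 CPM in EpCAM+ replicates 1 to 4 and at 96.2, 120, 115 and 134 CPM in the EpCAM- replicates. The log2 fold change was -0.09 with a 95% interval of -0.31 to 0.13 (adjusted p = 0.481, edgeR). The last 650 bases of Sod1 overlap Scaf4 on the opposite strand, which had 503 to 817 counts per library, and whether counting used strand is not given in the sources used here.

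Nfe2l2, which encodes Nrf2 itself, was lower in EpCAM+ cells (ENSMUSG00000015839, chr2:75675513-75704641, minus strand). It was at 125, 121, 125 and 110 CPM in EpCAM+ replicates 1 to 4 and at 159, 168, 200 and 187 CPM in the EpCAM- replicates, without overlap. The means were 120 ± 7.31 and 179 ± 18.6 CPM (SD, n = 4 each). The log2 fold change was -0.57 (SE 0.09), or 1.48-fold lower (edgeR adjusted p = 0.000841). These are transcript levels. Nrf2 is regulated mainly through the stability of its protein, which was not measured in these libraries.

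Gpx4, the peroxidase that reduces lipid hydroperoxides in membranes, was at the edge of the test (ENSMUSG00000075706, chr10:80047166-80056439, plus strand). It was at 316, 402, 359 and 387 CPM in EpCAM+ replicates 1 to 4 and at 372, 501, 442 and 475 CPM in the EpCAM- replicates. The fractions overlapped, but within each replicate number the EpCAM+ library was the lower one, with log2 CPM differences of -0.23, -0.32, -0.30 and -0.29. The log2 fold change was -0.29 (SE 0.11, edgeR adjusted p = 0.0524), and with the replicate number as a block the adjusted p was 0.00177. The adjusted p was also under 0.05 without EpCAM- replicate 1 (0.0126) or EpCAM+ replicate 2 (0.0465) and with DESeq2 (0.0239). The processed pseudogene Gpx4-ps2 held 929 to 1545 counts, 19.2% to 22.1% of the Gpx4 count in the same library, and with both rows summed the log2 fold change was -0.29 (adjusted p = 0.0579).

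Gpx1, the cytosolic glutathione peroxidase, was the most abundant transcript of the set (ENSMUSG00000063856, chr9:108338903-108340343, plus strand). It was at 2856, 3418, 3228 and 3705 CPM in EpCAM+ replicates 1 to 4 and at 3492, 4340, 3628 and 3594 CPM in the EpCAM- replicates. EpCAM- replicate 2 lay above the other 3 libraries of its fraction. The log2 fold change was -0.19 with a 95% interval of -0.43 to 0.06 (adjusted p = 0.189, edgeR).

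Nqo1, an NAD(P)H quinone reductase and a standard readout of Nrf2 activity, had the lowest level and the widest spread. It was at 16.7, 22.4, 17.7 and 18.4 CPM in EpCAM+ replicates 1 to 4 and at 18.3, 20.0, 33.2 and 39.1 CPM in the EpCAM- replicates (ENSMUSG00000003849, chr8:107388225-107403206, minus strand). EpCAM- replicates 3 and 4 were above every EpCAM+ library, whereas EpCAM- replicates 1 and 2 lay within the EpCAM+ range. The log2 fold change of -0.56 was similar in size to that of Nfe2l2 and Sod2, but its SE was 0.23 (edgeR adjusted p = 0.0748). The adjusted p was 0.0210 without EpCAM- replicate 1, 0.0393 without EpCAM- replicate 2 and 0.0373 with DESeq2. Without EpCAM- replicate 4 the log2 fold change was -0.35 (edgeR adjusted p = 0.211) and without EpCAM- replicate 3 it was -0.46 (adjusted p = 0.180).

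Cat and Txn1 were not called. Cat, the peroxisomal enzyme that splits hydrogen peroxide, was at 158 to 196 CPM in EpCAM+ and 174 to 194 CPM in EpCAM- libraries (ENSMUSG00000027187, chr2:103453849-103485160, minus strand). Its log2 fold change was -0.06 with a 95% interval of -0.24 to 0.11, and it changed sign under upper-quartile and library-total scaling. Txn1, the cytosolic thioredoxin that recharges peroxiredoxins, was at 454 to 623 CPM in EpCAM+ and 443 to 594 CPM in EpCAM- libraries (ENSMUSG00000028367, chr4:57943373-57956411, minus strand). Its log2 fold change of 0.14 had a 95% interval of -0.13 to 0.42 and was the highest estimate of the set.

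**Figure D2:**
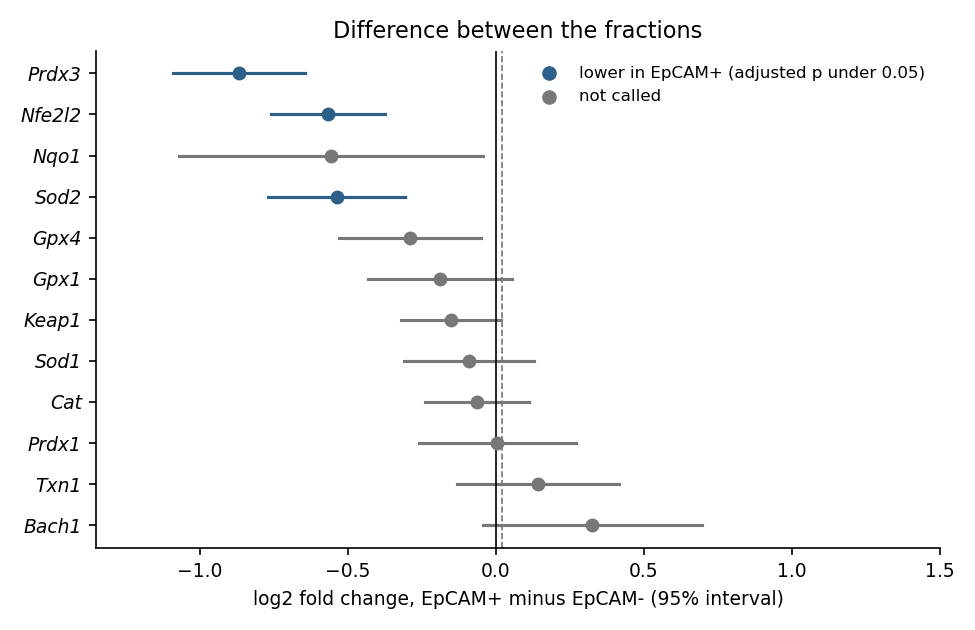
Log2 fold change (EpCAM+ minus EpCAM-) of the 10 genes and of Keap1 and Bach1, with 95% intervals from the edgeR fit. Blue marks an adjusted p under 0.05, the solid line is 0 and the dashed line the median of all tested genes, 0.02; Prdx3, Nfe2l2 and Sod2 lie left of 0 and are called.

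Libraries that share a replicate number deviated together, so the differences were also read within each number. For Prdx3, Sod2, Nfe2l2 and Gpx4 the EpCAM+ library was lower in 4 of 4 numbers. The Prdx3 differences ran from -1.10 to -0.65 on the log2 CPM scale, those of Nfe2l2 from -0.77 to -0.34 and those of Sod2 from -0.74 to -0.42. Nqo1 spanned -1.09 to 0.16, with 3 of 4 below 0, and Prdx1 was below 0 in 2 of 4. With the replicate number as a block, edgeR called 4 of the 10 genes lower, Gpx4 being the addition, and 0 higher. That fit called 24.7% of all genes lower and 25.6% higher, more than the fit without the block.

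**Figure D3:**
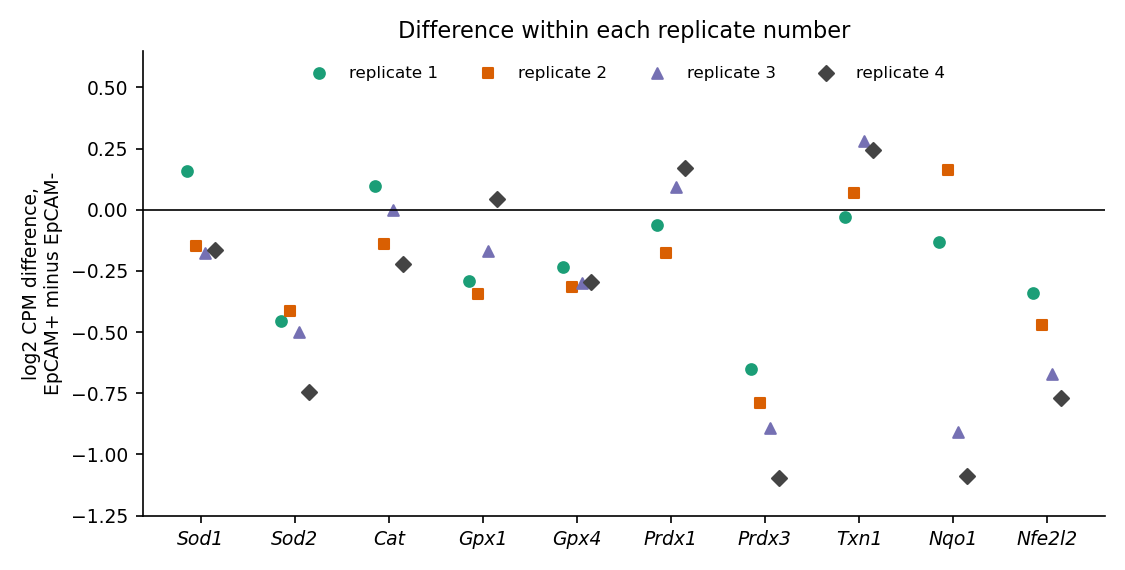
Log2 CPM difference, EpCAM+ minus EpCAM-, within each of the 4 replicate numbers for the 10 genes; symbols mark the replicate number and the line is 0. All 4 symbols lie below 0 for Sod2, Gpx4, Prdx3 and Nfe2l2, and the Nqo1 symbols spread from -1.09 to 0.16.

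Ratios of functionally related transcripts within one library do not depend on the scaling between libraries, and 5 were compared as log2 ratios of counts per kb of gene length. The mitochondrial to cytosolic ratio Sod2/Sod1 was -0.53, -0.42, -0.29 and -0.48 in EpCAM+ replicates 1 to 4 and 0.09, -0.15, 0.03 and 0.10 in the EpCAM- replicates. The difference of -0.45 (SE 0.08) had an exact two-sided permutation p = 0.0286 and p = 0.0358 after adjustment over the 5 ratios. Prdx3/Prdx1 differed by -0.86 (SE 0.15), with means of -1.65 ± 0.16 and -0.79 ± 0.24 (SD, n = 4 each; exact permutation p = 0.0286, adjusted 0.0358). The levels of these ratios depend on the gene length used, whereas the differences do not. With the lengths implied by the deposited FPKM, the means in EpCAM+ and EpCAM- libraries were 1.32 and 1.76 for Sod2/Sod1 and -3.35 and -2.49 for Prdx3/Prdx1. In both ratios, no EpCAM+ library reached the lowest EpCAM- library.

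The ratio of Nfe2l2 to its inhibitor Keap1 was 1.11 ± 0.08 in EpCAM+ and 1.52 ± 0.07 in EpCAM- libraries (SD, n = 4 each; exact permutation p = 0.0286, adjusted 0.0358). The ratio of Nfe2l2 to its competitor Bach1 was 4.40 ± 0.28 and 5.27 ± 0.14 (SD, n = 4 each; exact permutation p = 0.0286, adjusted 0.0358). Gpx1/Gpx4 did not separate the fractions, at 3.43 ± 0.07 and 3.33 ± 0.13 (SD, n = 4 each; exact permutation p = 0.257). With 4 libraries against 4, 0.0286 is the smallest two-sided p possible, and within the 4 replicate numbers the exact sign-flip test cannot go below 0.125, the value reached by the same 4 ratios. The ratios were formed with the results of single genes known and share Nfe2l2 in 2 cases.

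**Figure D4:**
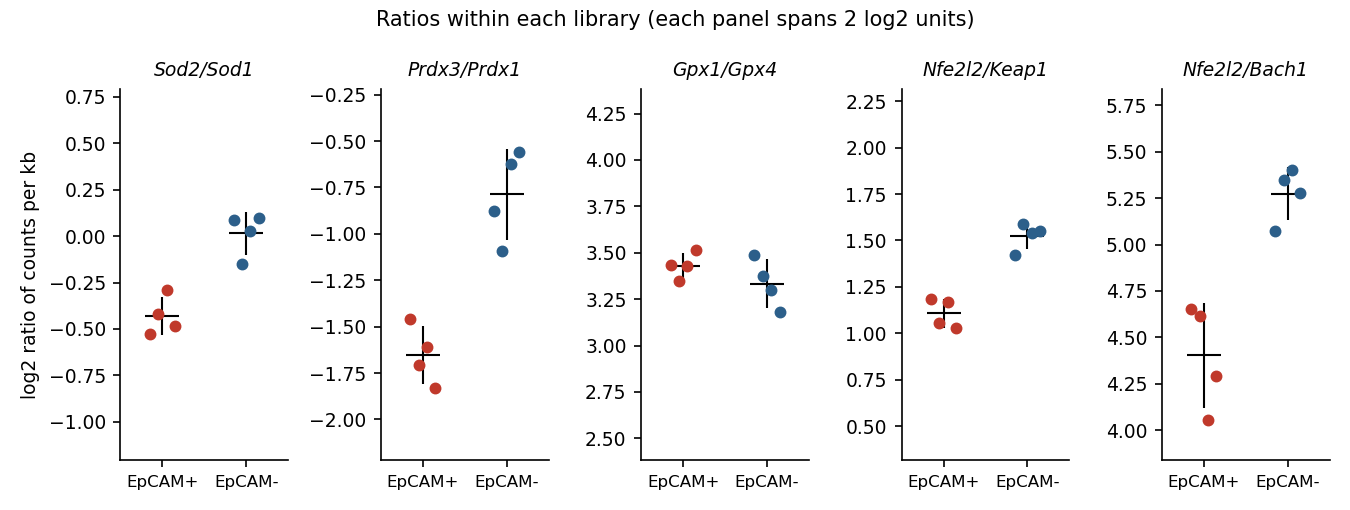
Log2 ratios of counts per kb within each library for 5 gene pairs, EpCAM+ in red and EpCAM- in blue, with mean and SD of 4 libraries; every panel spans 2 log2 units. Sod2/Sod1, Prdx3/Prdx1, Nfe2l2/Keap1 and Nfe2l2/Bach1 are lower in all EpCAM+ libraries, and Gpx1/Gpx4 overlaps.

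Levels of different genes were compared per kb of the length column of the table. In EpCAM- cells the order was Gpx1 (2612 CPM per kb), Txn1 (480), Prdx1 (349), Gpx4 (260), Prdx3 (203), Cat (70.1), Nfe2l2 (47.0), Sod2 (29.7), Sod1 (29.3) and Nqo1 (17.8). The ranges of 4 libraries overlapped between the neighbours Gpx4 and Prdx3, Sod2 and Sod1, and Sod1 and Nqo1. In EpCAM+ cells the order was the same apart from Sod1 (27.5) standing above Sod2 (20.4), and there the ranges of Gpx4 (212) and Prdx3 (111) did not overlap, whereas those of Nfe2l2 (31.7) and Sod1 did. The order depends on the length used: the length column gives 10008 bases for Sod2, whereas the deposited FPKM imply 1734. On the latter, Sod2 stood at 171 CPM per kb in EpCAM- cells against 50.5 for Sod1, and 6 of the 10 ranks in EpCAM- cells changed. The fold changes between fractions are not affected by length.

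For each of the 10 genes, the tested gene with the most similar profile over the 8 libraries was sought, as the smallest root mean square difference of centred log2 CPM. The profile most like Prdx3 was that of Ftsj1 (0.0458), and those most like Sod2 and Nfe2l2 were Isy1 (0.0435) and Bccip (0.0517). Gpx4 was closest to the ribosomal protein gene Rpl7 (0.0280) and Gpx1 to Hint1 (0.0355). For Sod1 it was Pak1ip1 (0.0496), for Cat Dnajc7 (0.0435), for Prdx1 Dnajc24 (0.0453), for Txn1 Tmem218 (0.0534) and for Nqo1 Tarsl2 (0.0857). Within the set, Prdx1 and Txn1 were closest to each other (0.0910), as were Gpx1 and Gpx4 (0.102) and Sod2 and Nfe2l2 (0.137). These distances describe 8 libraries and carry no test.

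Transcripts of proteins that bind Nrf2 or control it, and of related factors such as Nfe2 and Bach2, were counted next. Of 13 tested genes of this list, 3 were higher and 0 lower in EpCAM+ cells (edgeR), with a median log2 fold change of 0.08 beside 0.02 for all genes. The shares over all genes were 21.8% higher and 20.8% lower. The genes that rose were Nfe2, the p45 subunit of the erythroid NF-E2 complex (0.39, SE 0.08), Bach2, a repressor related to Bach1 (0.94, SE 0.23), and the kinase gene Gsk3b (0.27, SE 0.09). The small Maf gene Mafk had a log2 fold change of -0.26 (edgeR adjusted p = 0.0784), Keap1 of -0.15 (adjusted p = 0.134) and Bach1 of 0.33 (adjusted p = 0.139; 0.17 and adjusted p = 0.418 without EpCAM+ replicate 3). The differences of these changes from that of Nfe2l2 were not tested in this fit. Lower calls numbered 1 at an unadjusted p under 0.05 in edgeR, 0 with DESeq2, 1 with the replicate block (24.7% of all genes), and 3 without EpCAM- replicate 2, where the Keap1 adjusted p was 0.0465.

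Genes known as Nrf2 targets moved in both directions. Of 24 tested, 9 were lower and 5 higher in EpCAM+ cells (median -0.16), beside 20.8% and 21.8% of all genes. The 4 with the smallest adjusted p were lower: the biliverdin reductase gene Blvrb (log2 fold change -2.95, SE 0.25), and 3 genes whose enzymes supply cytosolic NADPH, Idh1 (-1.16, SE 0.11), G6pdx (-0.95, SE 0.10) and Pgd (-0.73, SE 0.08). The 5 genes that were higher, named after their values were seen, were Osgin1, Cbr3, Ephx1, Srxn1 and Abcc1, and Osgin1 had the largest log2 fold change (2.72, SE 0.31). Counts in EpCAM- libraries were low for Osgin1 (7 to 31), Cbr3 (5 to 20) and Ephx1 (7 to 24). These genes passed the count filter through the EpCAM+ libraries. With the replicate block 8 targets were higher, where 25.6% of all genes were, and 11 lower. When at least 10 counts were required in every library 2 were higher, and Osgin1, Cbr3 and Ephx1 were not tested. Hmox1, the heme oxygenase gene, also chosen after its values were seen, was at 8.74 ± 10.6 and 4.49 ± 4.19 CPM (SD, n = 4 each) and was not called.

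Among the 11 lists, the glutathione genes had the largest share of lower calls. Of 13 tested genes of glutathione synthesis and recycling, 9 were lower and 1 higher (median -0.41), beside 20.8% and 21.8% of all genes. Gpx3, among the lower genes, had 6 to 14 counts in EpCAM+ and 14 to 107 in EpCAM- libraries. It passed the count filter through the EpCAM- libraries, so the direction of its call was fixed by the filter. The count of lower genes was 8 with at least 10 counts required in every library and with library-total scaling. It was 10 with DESeq2 (22.6% of all genes) and with the replicate block (24.7%). Glrx5, a mitochondrial glutaredoxin for iron-sulfur cluster assembly, fell by 1.17 on the log2 scale. Gsr, which reduces oxidized glutathione, fell by 0.95, and Hagh, a glyoxalase, fell by 0.41. Gpx7, a peroxidase of the endoplasmic reticulum, was the gene that rose, by 1.95. Gclc and Gclm, the subunits of the rate-limiting enzyme of glutathione synthesis, are in this list and among the Nrf2 targets, and both were lower (-0.66 and -0.51). This pair was named after its values were seen.

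The glutathione S-transferases, which conjugate glutathione to electrophiles, split: 7 of 17 tested were higher and 4 lower (median 0.04). Among all genes 21.8% were higher and 20.8% lower. Gstt1 (1.63), Gsta4 (1.32) and Gstk1 (0.86) rose on the log2 scale and Gsto1 fell by 0.67. Members of this family share sequence, and reads could be divided among them.

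The remaining peroxiredoxin and thioredoxin genes were also divided, with 6 of 19 higher and 6 lower (median -0.02). Among all genes 21.8% were higher and 20.8% lower. The mitochondrial thioredoxin gene Txn2, partner of Prdx3, fell by 0.68 on the log2 scale, and the thioredoxin-like gene Txnl1 fell by 0.64. The mitochondrial methionine sulfoxide reductase gene Msrb2 (0.37) and the sestrin gene Sesn3 (1.17) were higher. Txnrd2, the mitochondrial thioredoxin reductase, was named after its values were seen and was lower (-0.57, SE 0.13, edgeR adjusted p = 0.00664). Its cytosolic counterpart Txnrd1 had a log2 fold change of 0.06 (SE 0.06, adjusted p = 0.487). The other peroxiredoxin genes, also named after their values were seen, moved both ways. Prdx6 (-0.59, SE 0.14) and Prdx2 (-0.37, SE 0.09), of the cytosol, were lower. Prdx4 (0.43, SE 0.09) was higher and Prdx5 (-0.10, SE 0.11) was not called. Lower calls in this list were thus not confined to mitochondrial enzymes.

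Around the superoxide dismutases, 2 of 4 tested genes were lower and 0 higher, beside 20.8% and 21.8% of all genes. The count of higher genes was 0 also at an unadjusted p under 0.05 in edgeR and with DESeq2. The copper importer gene Slc31a1 (-0.56, SE 0.10) and Ccs, the copper chaperone of Sod1 (-0.22, SE 0.06), were lower. Cox17 (0.49) and Atox1 (0.30), which carry copper to other proteins, were not called. The count of lower genes was 1 without EpCAM+ replicate 3 and under upper-quartile or library-total scaling. Of the NADPH oxidase subunits, which make superoxide, 2 of 8 tested were lower, among them Ncf1 (-0.83), and 2 were higher, Noxa1 (1.60) and Cyba (0.38). Noxa1 had only 3 to 18 counts in EpCAM- libraries, so it passed the count filter through the EpCAM+ libraries. Leaving out EpCAM+ replicate 1, 2 or 4, or EpCAM- replicate 2, 3 or 4, left 0 or 1 higher calls, as did a minimum of 10 counts in every library (1), and without EpCAM+ replicate 3 there was 1 lower call.

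Selenoprotein genes beside Gpx1 and Gpx4 gave 3 higher and 4 lower calls of 19 tested (median -0.17). These counts were not far from the shares over all genes, 21.8% higher and 20.8% lower. Sephs2, which makes the selenium donor for selenocysteine, fell by 0.56 on the log2 scale, and Selenoi and Selenos fell by 0.64 and 0.42. Selenop, the selenium transport protein, was higher by 0.49. With the replicate block 7 were lower. Among genes of lipid peroxidation around Gpx4, 4 of 9 tested were lower and 1 higher (median -0.28). The lipoxygenase gene Alox5 fell by 2.52, the cysteine desulfurase gene Nfs1 by 0.56 and Dhodh, of mitochondrial pyrimidine synthesis, by 0.44, whereas Gch1, of tetrahydrobiopterin synthesis, rose by 0.95.

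The peroxisomal genes around catalase gave 3 lower and 2 higher calls of 21 tested (median -0.09). Both counts were below the shares over all genes, 20.8% lower and 21.8% higher. Pex2 and Pex10, which encode peroxisome biogenesis factors, fell by 0.41 and 0.35 on the log2 scale, and the peroxisomal transporter gene Abcd3 fell by 0.35. There was 1 higher call without EpCAM+ replicate 3 or 4 or EpCAM- replicate 1, 2 or 3, and when genes with at least 1 count in any library were kept. Known regulators of oxidative state in stem cells gave 6 higher and 0 lower calls of 11 tested (median 0.50). Meis1 (1.20, SE 0.13), Ppargc1a (2.29, SE 0.39), Prdm16 (1.21, SE 0.24) and Foxo1 (0.66, SE 0.16), all transcriptional regulators, were higher. Ppargc1a had only 3 to 15 counts in EpCAM- libraries. It passed the count filter through the EpCAM+ libraries, so the direction of its call was fixed by the filter. The count of higher genes was 4 without EpCAM+ replicate 1 or EpCAM- replicate 3 or 4. It was 7 with at least 10 counts required in every library and 9 with the replicate block (25.6% of all genes). No gene of this list was lower at an unadjusted p under 0.05 in edgeR or with DESeq2.

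**Figure D5:**
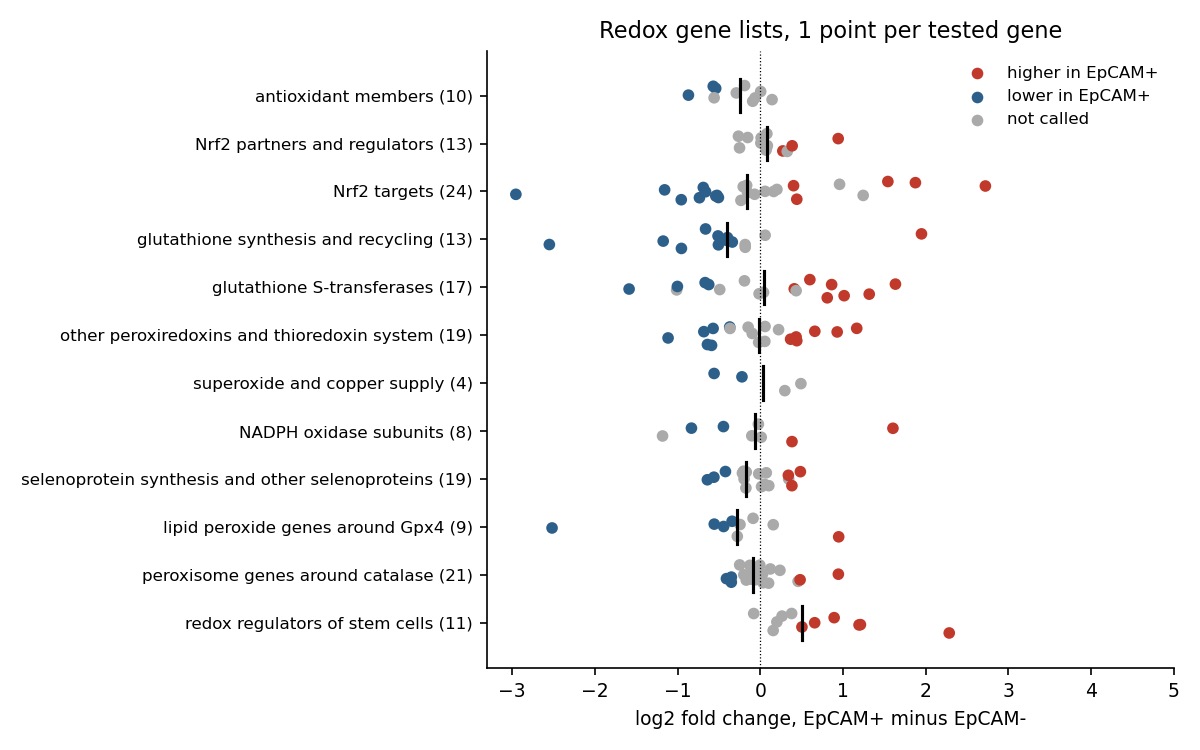
Log2 fold change (EpCAM+ minus EpCAM-) of each tested gene in the set of 10 and in 11 lists of redox genes; the number tested is beside each name, the black bar is the median, red and blue mark genes called higher or lower and grey genes not called. Glutathione synthesis and recycling has 9 of 13 genes lower, and the redox regulators of stem cells have 6 of 11 higher. Among all genes 20.8% were lower and 21.8% higher.

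Several lists of markers of cell types that an LSK gate could hold differed between the fractions, although the lineage stain used in the sort is meant to remove mature T, B, myeloid and erythroid cells. The counts below stand beside 20.8% lower and 21.8% higher over all tested genes. They are given out of all listed genes, and in some lists fewer were tested. Tested were 8 erythroid, 7 macrophage, 4 plasma cell, 3 B cell, 5 dendritic cell, 5 megakaryocyte and 5 epithelial genes. Of 9 neutrophil genes 4 were lower in EpCAM+ cells, with a summed level of 1097 to 1853 CPM against 11940 to 18560. The 4 were Mpo, Prtn3, Elane and Ctsg, whereas S100a8, S100a9, Ltf, Ngp and Camp overlapped between the fractions and were not called. Most of the sum was Mpo, with means of 781 CPM in EpCAM+ and 10440 CPM in EpCAM- libraries. Of 10 erythroid genes 5 were lower and 1 higher (37.6 to 89.6 against 376 to 929). Of 5 mast cell and basophil genes 3 were lower (68.3 to 91.2 against 231 to 479), as were 2 of 8 macrophage genes (54.1 to 107 against 74.4 to 106). Of 10 LSK and stem cell genes 8 were higher (2644 to 2840 against 1403 to 2190). Plasma cell genes were higher in 2 of 6 (384 to 3958 against 169 to 256), B cell genes in 2 of 6 (71.5 to 120 against 46.1 to 78.7) and dendritic cell genes in 4 of 7 (119 to 305 against 98.6 to 131). In EpCAM- libraries Jchain had 0 to 4 counts, Mzb1 2 to 6 and Ms4a1 0 to 2. Xcr1 had 2 to 13 there, Batf3 0 to 10 and Ccr9 0 to 6. These genes passed the count filter through the EpCAM+ libraries only, so the direction of their calls was fixed by the filter. Jchain varied widely in EpCAM+ libraries (1093 ± 1624 CPM, SD). Megakaryocyte genes were higher in 1 of 6 (129 to 367 against 83.5 to 286) and epithelial genes in 5 of 6 (206 to 259 against 79.4 to 107). Among the epithelial genes, Cldn7 had 2 to 15 and Ocln 2 to 19 counts in EpCAM- libraries. Both also passed the count filter through the EpCAM+ libraries, so the direction of their calls was likewise fixed. None of the 6 T and NK cell genes was tested (1.57 to 4.80 against 0.222 to 1.94), and Pax5, Cd209d and Krt19 had no count in any library. The summed levels of the macrophage, B cell, dendritic cell, megakaryocyte, and T and NK cell genes overlapped between the fractions. The part of these cell types in the differences of Prdx3, Sod2 and Nfe2l2 was not tested. In such bulk libraries, fewer cells of a type and less RNA per cell cannot be told apart.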

How the data were processed

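RNA-Seq was performed on 4 EpCAM+ and 4 EpCAM- Zeb1-/- LSK libraries, amplified with SMART-Seq v4. Per the labels, the authors used STAR 2.6.1d, featureCounts 1.5.0-p3 and DESeq2 1.20.0 with GRCm38.p6. The deposited table holds whole-number read counts per gene without normalization, and FPKM that the authors derived from them. It also holds the authors' own log2 fold changes and p-values, which were not used. The FPKM served only to derive alternative gene lengths. Strand setting and treatment of multimapping reads are not given in the sources used here.

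Counts were filtered with filterByExpr, scaled by TMM and tested with edgeR 4.0.16 (quasi-likelihood, two-sided, Benjamini-Hochberg, threshold 0.05) in R 4.3.3, with DESeq2 1.42.0 as an alternative. SEs derive from the F statistic, and log2 CPM used a prior count of 2. Figures used Python 3.11.15 and matplotlib 3.10.9. The within-library ratios were compared by exact permutation over libraries. On counts simulated for this comparison with 2-fold changes (13373 genes run), 137 of 195 changed genes were recovered and 6 of 143 calls were false. The simulation changed only 200 genes and drew the libraries independently, whereas 42.6% of tested genes were called in the data. These rates therefore need not hold for the data. Depth was 14114491 to 17073546 counts per library. The labels do not say whether equal replicate numbers mark 1 mouse. Deviations from the fraction mean correlated at 0.205 to 0.356 between libraries of the same number and at -0.216 to 0.0396 otherwise, so the numbers were treated as pairs in the block fit.

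The members and lists were chosen with earlier results of these data known. Named genes were the members, Epcam, Zeb1, Keap1, Bach1, the 4 genes of each list with the smallest adjusted p, and the gene most similar to each member, except where stated. Some genes that this rule selects are not reported here.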

Additional observations from a re-analysis of the deposited data

Results flagged for a closer look

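In the EpCAM- fraction, replicate 2 had 4340 CPM of Gpx1, set apart from the other 3 libraries (3492 to 3628 CPM) by more than Dixon's 95% criterion for 4 samples allows. This was 1 flag among 30 groups of 4 values examined, and chance flags about 1 group in 20. Without EpCAM- replicate 2 and in each other fit that left out 1 library, Gpx1 was not called (log2 fold change -0.25 to -0.12, edgeR adjusted p 0.103 to 0.377).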

How the results depend on the processing

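Prdx3, Nfe2l2 and Sod2 were called lower under each of the 15 alternative settings, with log2 fold changes of -0.96 to -0.78, -0.63 to -0.48 and -0.61 to -0.44. The count of members called lower was 5 with DESeq2, 4 with the replicate block and 3 to 5 when 1 library was left out (5 without EpCAM- replicate 1), and 0 were called higher in each setting. Cat, with no call in any setting, turned to 0.02 under upper-quartile scaling (0.0226) and library totals (0.0205). Prdx1, also without a call, turned to -0.002 with DESeq2 size factors (-0.00238) and DESeq2 (-0.00236), to -0.01 when genes with 1 count in any library were kept (-0.00909), and ranged from -0.0605 to 0.0906 when 1 library was left out. Over all genes, the replicate block gave 6818 calls against 5779, and leaving out 1 library 4662 to 6039. Upper-quartile scaling and library totals moved the median of all genes to 0.11 (log2) and the share of calls that were higher from 51.2% to 63.6% and 62.7%. The block changed no call among the members other than that of Gpx4. The ratio differences kept their sign without any 1 library and moved by less than 1 SD, but no p under 0.0571 is possible with 3 libraries against 4. Of the ranks by level, 5 of 10 in EpCAM- and 6 of 10 in EpCAM+ cells changed without division by length, and 6 and 8 with the lengths implied by FPKM, a setting added after seeing the data. Txn-ps1 had at most 1 count per library.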
